A study of Mus musculus with 2 samples.

Results

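Chromatin accessibility was described at the RUNX family genes Runx1, Runx2 and Runx3 and at Cbfb, the gene of CBF beta, in thymus. The genes were chosen by name, with earlier results of these data known, and each was taken with its gene body and 100 kb on each side. They are 4 of the 21728 protein-coding genes that the GENCODE M21 annotation places on the autosomes and the X chromosome of mm10. Their windows held 94 of the 59484 peaks of mouse 1 and 133 of the 72913 peaks of mouse 2. A peak is a stretch where the nuclease DNase I cut nuclear DNA far more often than around it, which marks open chromatin.

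Both animals were female B6CASTF1/J mice aged 36 days, first-generation hybrids of C57BL/6J and CAST/EiJ, and the labels name no treatment or engineered allele. Whole thymus of each separate animal gave 1 DNase-seq library, so mouse 1 and mouse 2 are replicates of 1 group and no groups were compared. No p-value is given, and a difference between the mice is set beside that of all peaks. The build, mm10, is a C57BL/6J genome, and the part of CAST/EiJ alleles in the values was not tested.

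RUNX proteins are transcription factors that bind DNA through their Runt domain. CBF beta does not bind DNA itself but joins each of the 3 RUNX proteins, steadies it and raises its affinity for DNA. In blood formation RUNX1 is needed for the first stem cells and later for early thymocytes, the immature T cells that make up most of the thymus. RUNX3 acts in the CD8 lineage, where it silences Cd4, and RUNX2 is the master regulator of bone-forming osteoblasts. Each Runx gene has a distal promoter and a proximal promoter, which give proteins with different first residues, and Cbfb has a single promoter.

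The libraries differed in peak number and in the step of the deposited peak signal. Every signal value counts whole steps (tolerance 0.1 steps) of 0.00638 for mouse 1 and 0.00504 for mouse 2. No source used here names the scale of the signal, so depth is not known from it. Were the scale reads per 1000000, the depths would be 157 M and 198 M reads (M, 1000000). The weakest listed peak held 10 steps in either library, and the median peak had a signal of 1.23 in mouse 1 and 1.45 in mouse 2. The tissue label was set against marker promoters: 12 of 12 thymocyte markers had a promoter peak in both mice, against 2 of 5 for B cells, 2 of 5 for myeloid cells, 1 of 5 for thymic epithelium, 4 of 5 for stroma and endothelium, 1 of 3 for erythroid cells and 0 of 4 for bone. The share over all coding genes was 55.1%, so most of the other counts lie near or below it, and that of stroma and endothelium lies above it. In bulk tissue, a site open in few cells and a site cut lightly in many cells cannot be told apart.

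The first sequences are those that the promoter results turn on, with the strongest site of the Runx1 window outside its promoters. Each promoter is the 200 bases before the most upstream start site, read from GRCm38 (mm10) 5′ to 3′ on the strand of the gene. Capitals mark the RUNX core TGTGGT or TGCGGT, or the same letters read on the other strand. The Runx1 distal promoter is chr16:92826150-92826349 (minus strand), that of Runx2 is chr17:44814798-44814997 (minus), that of Runx3 is chr4:135120452-135120651 (plus), the Cbfb promoter is chr8:105170474-105170673 (plus), and the Runx1 intron site is chr16:92801661-92801940 (minus).
Runx1 distal promoter: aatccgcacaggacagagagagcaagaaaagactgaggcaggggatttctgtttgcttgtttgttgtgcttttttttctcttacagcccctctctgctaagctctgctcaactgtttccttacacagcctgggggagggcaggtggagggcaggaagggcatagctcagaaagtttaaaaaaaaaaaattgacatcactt
Runx2 distal promoter: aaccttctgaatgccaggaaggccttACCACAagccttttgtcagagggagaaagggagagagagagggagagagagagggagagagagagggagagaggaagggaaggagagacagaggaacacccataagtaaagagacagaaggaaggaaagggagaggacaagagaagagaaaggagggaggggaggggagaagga
Runx3 distal promoter: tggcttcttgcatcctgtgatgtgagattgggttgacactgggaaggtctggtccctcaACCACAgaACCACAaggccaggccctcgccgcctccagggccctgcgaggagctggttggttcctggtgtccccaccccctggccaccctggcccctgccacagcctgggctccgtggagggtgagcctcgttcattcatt
Cbfb promoter: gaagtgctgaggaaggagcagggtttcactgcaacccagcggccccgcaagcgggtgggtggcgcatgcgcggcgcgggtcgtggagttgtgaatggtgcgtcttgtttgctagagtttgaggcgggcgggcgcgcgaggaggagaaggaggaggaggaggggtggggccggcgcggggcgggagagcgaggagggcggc
Runx1 intron site: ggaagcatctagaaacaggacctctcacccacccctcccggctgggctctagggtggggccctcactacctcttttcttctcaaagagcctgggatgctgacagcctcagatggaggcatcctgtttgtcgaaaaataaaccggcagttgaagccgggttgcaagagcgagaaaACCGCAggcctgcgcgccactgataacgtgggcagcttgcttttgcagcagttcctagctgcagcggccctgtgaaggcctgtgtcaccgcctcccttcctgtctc
Within these 200 bases, a RUNX core stood in the distal promoters of Runx2 (1 core) and Runx3 (2 cores) and in no other of the 7 promoters of the 4 genes. Of all coding genes, 14.7% hold a core in the 200 bases before their first start site. Outside these bases, some peaks of the proximal promoters of Runx1 and Runx2 held cores. Examples are chr16:92696701-92696960 in mouse 1 and chr17:44735041-44735420 in mouse 2, with 1 core each. The Runx2 distal promoter is rich in GAGA repeats, and the Cbfb promoter has 70% G and C.

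Of the 7 promoters, 6 were open in both mice and the distal promoter of Runx2 was closed in both. A promoter was called open when a peak of the shorter, stricter list overlapped the 1000 bp on either side of its start sites, which held for 55.1% of all coding genes in both mice, 55.5% in mouse 1 and 61.8% in mouse 2. With the longer list, which also gave the same 7 calls, it held for 59.3% in both mice. These shares score a gene by any of its start sites, whereas the 7 calls are made per promoter. Scored as genes, all 4 were open in both mice, Runx2 among them. The Cbfb promoter was by far the most accessible of the 7. Its strongest peak had a signal of 20.2 in mouse 1 and 37.7 in mouse 2, a mean of 28.9 ± 12.4 (SD, n = 2), and stood at percentiles 98.0 and 96.9 when set among the strongest promoter peaks of all coding genes. No other promoter of the 4 genes came above a signal of 8.46 in either mouse. The other open promoters stood at percentiles 51.9 to 78.4 in mouse 1 and 54.8 to 65.1 in mouse 2. Genes without a promoter peak are counted in these percentiles, so several open promoters rank low among open ones.

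The distal promoter of Runx1, first start site at 92826149 on chromosome 16, had signals of 6.52 in mouse 1 and 8.46 in mouse 2 (7.49 ± 1.37, SD, n = 2). The proximal promoter of Runx1 lies 128.821 kb further along the gene, within the body of the longer transcript, and had signals of 2.72 in mouse 1 and 5.38 in mouse 2 (4.05 ± 1.87). The distal promoter was thus above the proximal one in both mice, and the lower of its values exceeded the higher proximal one. This order depends on the window: with 2500 bp on either side, the proximal window takes in a site at +127.3 kb from the distal start and its mean is 11.5, against 7.49 at the distal promoter. The strongest proximal peak was not the same peak in each animal: it was chr16:92696701-92696960 in mouse 1 and chr16:92697321-92697680 in mouse 2. Regions of significant cutting, where the deposited FDR of the cut rate was below 0.05, covered 1535 and 2234 of the 2372 bp of the distal promoter window and 1490 and 2029 of the 3834 bp of the proximal one, mouse 1 first. The windows differ in length because each spans several start sites.

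Runx3 showed the same order in each mouse, with a smaller gap. Its distal promoter, start site at 135120652 on chromosome 4, is the one known for CD8-lineage T cells of the mouse, and it had signals of 3.11 in mouse 1 and 4.28 in mouse 2 (3.70 ± 0.83, SD, n = 2). The proximal promoter, 31.844 kb downstream, had signals of 1.54 and 3.89 (2.71 ± 1.66). They come from different peaks, chr4:135153021-135153275 in mouse 1 and chr4:135152321-135152580 in mouse 2. The distal value was higher in each mouse, where both promoters were measured in the same library. The ranges over the 2 mice overlapped, and whether the gap exceeds the spread between animals was not tested. With 2500 bp windows the order of the means turned, at 5.79 for the proximal and 3.70 for the distal promoter. Within windows of 2001 bp each, cutting covered 573 and 650 bp of the distal promoter and 950 and 1422 bp of the proximal one, so significant cutting ran over a longer stretch at the proximal promoter in both mice.

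Runx2 was the exception among the 3 paralogs. The window of its distal promoter, 2572 bp around start sites from 44814797 on chromosome 17, held no peak of either list, 0 bp of significant cutting and 0 footprints in both mice. Its proximal promoter, 78.149 kb downstream, was open in both, with 5 peaks in each mouse and signals of 1.26 in mouse 1 and 4.76 in mouse 2 (3.01 ± 2.48, SD, n = 2). The ratio of the strongest peaks between the mice was larger there than at the other open promoters. These were not the same stretch: chr17:44736401-44736620 in mouse 1 and chr17:44736181-44736420 in mouse 2 overlap only at their edges. Across animals the heights of the proximal promoters of Runx1, Runx2 and Runx3 and of the distal promoter of Runx3 overlapped. Within each mouse, the Runx1 proximal promoter stood above the Runx2 and Runx3 proximal ones.

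**Figure D1:**
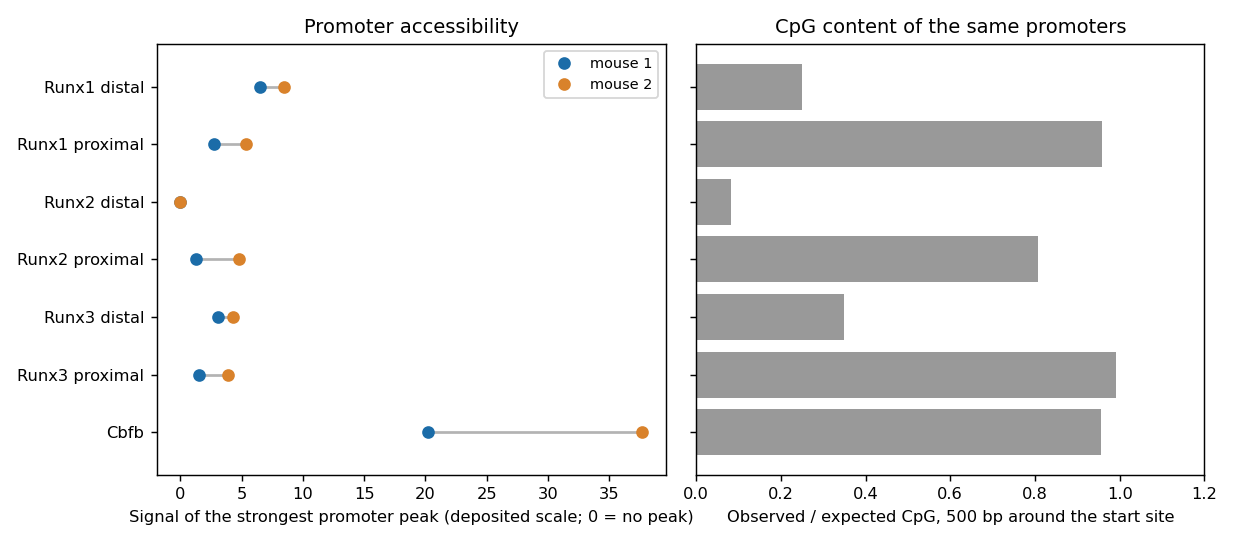
The left panel plots the deposited signal of the strongest peak at each of the 7 promoters, 1 point per mouse with 0 for no peak, and the right panel the ratio of observed to expected CpG in the 500 bp around the first start site. Cbfb stands at 20.2 and 37.7, the Runx2 distal promoter at 0 in both mice, and the distal promoters of the Runx genes have the lowest CpG ratios.

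The distal and proximal promoters also differ in base composition. The ratio of observed to expected CpG in the 500 bp around the first start site was 0.25 at the distal promoter of Runx1, 0.083 at that of Runx2 and 0.35 at that of Runx3. At the proximal promoters it was 0.96, 0.81 and 0.99 in the same gene order, and at Cbfb 0.95. CpG-rich promoters (CpG islands) are open in many cell types as a rule, whereas CpG-poor ones are more often open in few. Of the 3 CpG-poor distal promoters, those of Runx1 and Runx3 were open and that of Runx2 was closed.

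All 6 open promoters held footprints, and a share over all open promoters is not given. A footprint is a short protected run inside cut DNA, at which a bound protein may shield the bases. The Runx1 distal promoter held 13 footprints in mouse 1 and 11 in mouse 2, and the Runx1 proximal promoter 10 and 19. The Runx3 distal promoter held 5 and 9, the Runx3 proximal promoter 18 and 15, the Runx2 proximal promoter 26 and 27, and the Cbfb promoter 10 and 19. These counts are not scaled to window length, which was 3956 bp at the Runx2 proximal promoter, 2272 bp at Cbfb and 2001 bp at each Runx3 promoter. In the printed Runx3 distal promoter, the first RUNX core (chr4:135120511-135120516) lay wholly in a footprint of 12 bp in mouse 2, which also touched 1 base of the second core. Mouse 1 had no footprint over either core. The core of the closed Runx2 distal promoter had none in either mouse.

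Outside the promoters the 4 genes had unlike landscapes. Runx1 carried most of its open sites in its own introns, and Runx3 more of them in the intergenic DNA on both sides than in its introns. Runx2 had few for its length, and Cbfb had none in its gene body beyond its promoter. Runx1 (ENSMUSG00000022952.17, chr16:92601466-92826149, minus strand) is 224.684 kb long. Its window held 28 peaks in mouse 1 and 43 in mouse 2 (35.5 ± 10.6, SD, n = 2), of which 18 and 26 lay in its introns. Runx2 (ENSMUSG00000039153.16, chr17:44495987-44814797, minus) is the longest at 318.811 kb and had 19 and 22 peaks (20.5 ± 2.12), with 8 and 13 in introns. Runx3 (ENSMUSG00000070691.10, chr4:135120652-135177990, plus) spans 57.339 kb and had 26 and 32 peaks (29.0 ± 4.24), of which 14 and 16 lay between genes and 5 and 6 in introns. Cbfb (ENSMUSG00000031885.14, chr8:105170674-105217989, plus) spans 47.316 kb and had 21 and 36 peaks (28.5 ± 10.6).

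Per length the order was different. Mean peak density was 11.5 peaks per 100 kb of window at Cbfb, 11.3 at Runx3, 8.36 at Runx1 and 3.95 at Runx2, against a median of 4.44 over the windows of all coding genes. Only Runx2 fell below that median, at percentile 45.8, while Cbfb stood at percentile 86.0. Significant cutting covered 3.81% of the Runx1 window in mouse 1 and 5.57% in mouse 2, 2.11% and 2.17% at Runx2, 5.65% and 6.45% at Runx3, and 5.39% and 9.20% at Cbfb. Over the whole genome these shares were 1.28% and 1.47%. Unlike the median density, the genome shares take in DNA far from genes, and the share over the windows of all coding genes was not computed.

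**Figure D2:**
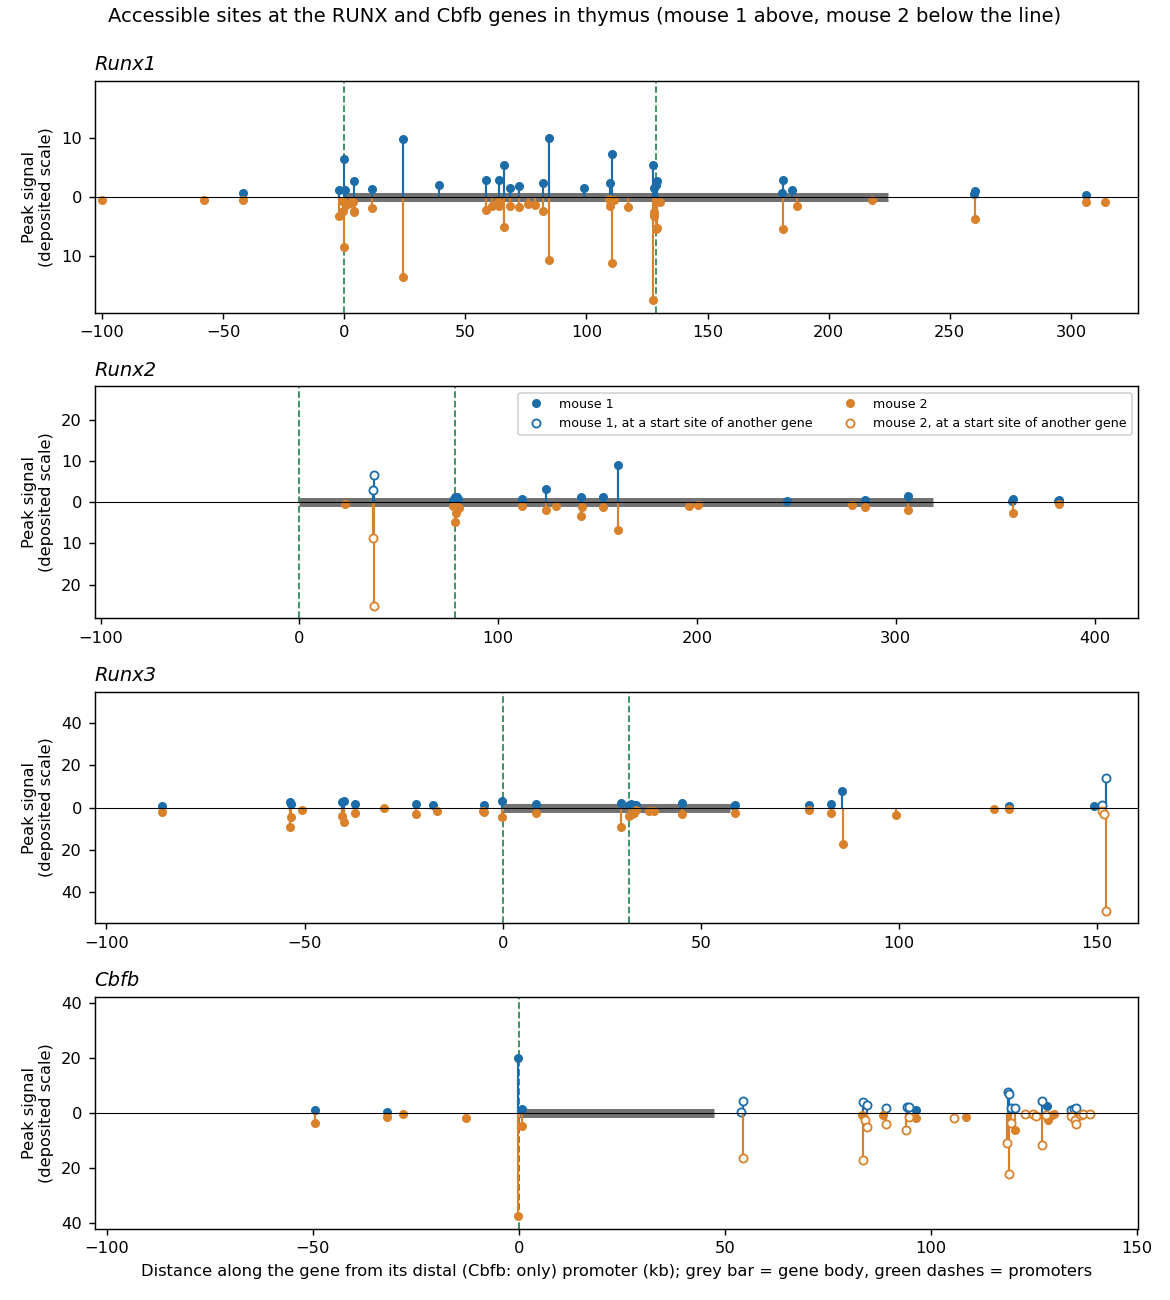
Each vertical line is a peak, placed by its distance in kb along the gene from the distal (Cbfb: only) start site and as tall as its deposited signal, with mouse 1 above and mouse 2 below the horizontal line; the grey bar is the gene body, green dashes are promoters and open circles are peaks at start sites of other genes. Runx1 peaks lie mostly between its promoters, and the grey bar of Cbfb carries no peak beyond its promoter.

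**Figure D3:**
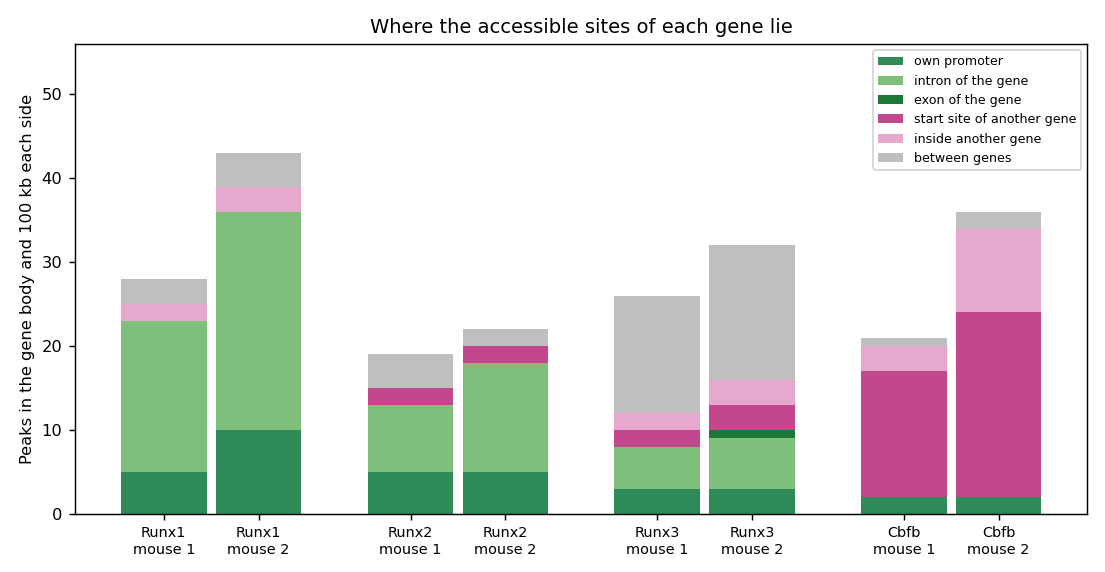
Bars count the peaks of each window by position, 1 bar per gene and mouse. Introns take 18 of 28 and 26 of 43 peaks at Runx1, and start sites of other genes take 15 of 21 and 22 of 36 at Cbfb.

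In Runx1, 3 of the 5 strongest sites outside the promoters were more accessible than either Runx1 promoter in both mice. Such sites are named here only where both mice had the peak and no start site of another gene lay within 1000 bp. The highest mean belonged to the intron site at +24.3 kb from the distal start (chr16:92801661-92801940), whose sequence is printed with the promoters. It had signals of 9.90 in mouse 1 and 13.6 in mouse 2. It lies in the first intron, at about the distance from the distal promoter where the haematopoietic stem cell enhancer of mouse Runx1 is known. Its single RUNX core (chr16:92801761-92801766) lay wholly inside a footprint in both animals, of 16 bp in mouse 1 and 22 bp in mouse 2. Among all shared peaks that hold a RUNX core, a core touched a footprint in both mice in 28.1%.

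The other named Runx1 sites were also intronic. The site at +84.6 kb (chr16:92741421-92741640) had signals of 9.97 in mouse 1 and 10.7 in mouse 2. The site at +110.5 kb (chr16:92715601-92715780) had 7.28 and 11.2, and the site at +65.8 kb (chr16:92760221-92760420) had 5.37 and 5.05. The site at +127.3 kb (chr16:92698721-92698940), just upstream of the proximal promoter, differed most of the 5, with 5.36 in mouse 1 and 17.6 in mouse 2. These 5 were the strongest of 18 eligible shared sites of the window. The strongest unshared peak of mouse 1 was an intron peak (chr16:92786858-92787026, signal 1.98) at which the longer list of mouse 2 had a peak of 1.10. That of mouse 2 was part of the distal promoter (chr16:92826381-92826580, signal 2.42), and all of its 200 bp lay in significantly cut DNA in mouse 1.

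Runx2 had 1 strong intron site and several weak ones. The strong site, at +160.1 kb (chr17:44654601-44654840), had signals of 8.97 in mouse 1 and 6.74 in mouse 2, above the only open Runx2 promoter in both mice. It held no RUNX core. The next, at +124.2 kb (chr17:44690501-44690680), had 3.15 and 1.80, and its RUNX core touched no footprint. These were 2 of the 3 named sites of the 4 genes that were higher in mouse 1, the third being the +65.8 kb site of Runx1. The remaining named sites were at +141.7 kb (1.27 and 3.26), at +306.3 kb (1.40 and 1.77) and at +358.9 kb, which is 40.1 kb past the gene end (0.804 and 2.58). The highest peak of the window in mouse 2 belonged to another gene: the Supt3 start site inside a Runx2 intron had signals of 6.64 in mouse 1 and 25.1 in mouse 2. Supt3, a subunit gene of a histone-acetylating coactivator complex, starts between the Runx2 promoters. The strongest unshared Runx2 peaks were weak intron peaks, chr17:44569424-44569503 in mouse 1 (0.383, with 0 bp of significant cutting in mouse 2) and chr17:44672361-44672540 in mouse 2 (1.10, with a peak of 0.740 in the longer list of mouse 1).

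In Runx3 the strongest named sites lay outside the gene. A site 28.4 kb past the gene end, at +85.8 kb (chr4:135206261-135206560), had signals of 7.96 in mouse 1 and 16.9 in mouse 2. Upstream of the gene, the site at -53.7 kb (chr4:135066841-135067020) had 2.85 and 9.08, and a close pair at -40.1 kb (3.25 and 6.77) and -40.7 kb (2.45 and 3.94) followed. The only named intron site, at +30 kb (chr4:135150521-135150720), lies shortly before the proximal promoter and had 2.35 in mouse 1 and 9.23 in mouse 2. All 5 had a higher signal than the proximal Runx3 promoter in both mice. The highest peak of the window, at 13.8 and 48.8, was at the start site of the neighbouring gene Clic4, a chloride intracellular channel gene. The strongest unshared peak of mouse 2 lay inside Clic4 (chr4:135219741-135219920, signal 3.52), and that of mouse 1 between genes (chr4:135102916-135102994, signal 1.19). At each of these the longer list of the other mouse had a peak, of 0.772 in mouse 1 and 1.38 in mouse 2.

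The Cbfb gene body was empty of open sites beyond its promoter. In both mice it held 0 peaks of the shorter list, 0 of the longer list, 0 footprints and 0 regions of significant cutting outside the promoter window. The same stretch had 65 regions of significant cutting in mouse 1 and 87 in mouse 2 at Runx1, 41 and 40 at Runx2, and 9 and 24 at Runx3. Among the 2813 coding genes of 30 to 70 kb with an open promoter in both mice, a set chosen after the values were seen, 36.6% had no further peak in the gene body in either mouse and 15.4% had no region of significant cutting there. A body without peaks is therefore common for a gene of this length, and one without any significant cutting is less common.

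The peaks counted in the Cbfb window belonged mostly to its neighbours. Start sites of other genes took 15 of 21 peaks in mouse 1 and 22 of 36 in mouse 2, in a gene-dense stretch that holds Ces4a, D230025D16Rik, B3gnt9, Tradd, Fbxl8, Hsf4, Nol3, Exoc3l, E2f4, Elmo3 and Lrrc29. Only 4 shared sites were eligible to be named. They were weak: 2.68 in mouse 1 and 2.77 in mouse 2 at +128.4 kb inside E2f4, a cell cycle transcription factor gene, 1.07 and 3.79 at -49.5 kb, 1.19 and 1.76 at +96.3 kb inside Fbxl8, and 0.466 and 1.52 at -32.1 kb inside Ces4a. All 4 stood far below the Cbfb promoter, with at most 2.68 against 20.2 in mouse 1 and 3.79 against 37.7 in mouse 2. The strongest unshared peaks were at start sites of neighbours, D230025D16Rik in mouse 1 (0.447) and B3gnt9 in mouse 2 (2.51), and both lay fully in significantly cut DNA of the other mouse.

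Several of the named sites carried the core of the CTCF motif. CTCF is a zinc finger protein that bounds chromatin loops, and it leaves a long footprint. The sequences show the 4 sites with the strongest signals or with both motifs, read from GRCm38 (mm10) on the strand of the gene, with the CTCF core AGGGGGC or AGAGGGC on either strand in capitals. They are chr16:92698721-92698940 (minus strand), chr4:135206261-135206560 (plus), chr4:135066841-135067020 (plus) and chr8:105121061-105121240 (plus).
Runx1 site at +127.3 kb: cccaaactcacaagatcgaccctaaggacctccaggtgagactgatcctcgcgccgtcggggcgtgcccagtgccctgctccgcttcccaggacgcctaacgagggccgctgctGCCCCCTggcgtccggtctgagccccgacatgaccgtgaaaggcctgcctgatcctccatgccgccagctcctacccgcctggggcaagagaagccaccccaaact
Runx3 site at +85.8 kb: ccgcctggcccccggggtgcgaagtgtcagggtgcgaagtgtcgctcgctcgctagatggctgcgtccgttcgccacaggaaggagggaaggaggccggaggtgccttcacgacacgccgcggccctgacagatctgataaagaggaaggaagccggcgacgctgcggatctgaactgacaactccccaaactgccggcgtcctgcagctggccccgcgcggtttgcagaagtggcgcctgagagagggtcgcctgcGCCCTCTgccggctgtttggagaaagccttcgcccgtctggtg
Runx3 site at -53.7 kb: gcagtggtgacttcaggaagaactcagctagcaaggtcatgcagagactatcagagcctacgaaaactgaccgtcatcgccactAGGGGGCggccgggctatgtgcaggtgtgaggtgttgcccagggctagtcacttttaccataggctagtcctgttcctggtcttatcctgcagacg
Cbfb site at -49.5 kb: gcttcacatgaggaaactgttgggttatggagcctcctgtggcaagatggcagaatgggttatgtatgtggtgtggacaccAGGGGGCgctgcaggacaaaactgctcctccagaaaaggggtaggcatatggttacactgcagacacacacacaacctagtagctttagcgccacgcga
The search for this motif was added after the sequences had been seen.

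Of the 19 named shared sites, 6 held a CTCF core, and in all 6 the core touched a footprint in both mice. Over all shared peaks, 21.3% held the core, and in 71.1% of those it touched a footprint in both mice. The footprint around the core was 45 bp long in mouse 1 and 47 bp in mouse 2 at the Runx1 site, 25 and 28 bp at the +85.8 kb site of Runx3, 38 and 30 bp at its -53.7 kb site, and 29 and 30 bp at the Cbfb site. Such lengths were not limited to CTCF cores. The printed Cbfb promoter, without a CTCF core, had a footprint of 41 bp in mouse 1 and 42 bp in mouse 2. The -53.7 kb site of Runx3 had one of 44 bp off its core in mouse 2. The remaining CTCF cores were at +65.8 kb of Runx1 and at -32.1 kb of Cbfb. A RUNX core stood in 5 of the 19 sites, against 20.8% of all shared peaks, and touched a footprint in both mice in 2 of them. One was the +24.3 kb site of Runx1, and the other was the -49.5 kb site of Cbfb, where the footprint of the CTCF core reached only 1 base of it.

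Across all peaks of the 4 windows, RUNX cores were about as frequent as elsewhere in mouse 1 and somewhat more frequent in mouse 2. They stood in 25 of 94 window peaks in mouse 1 (26.6%), against 24.7% of all peaks, and in 37 of 133 in mouse 2 (27.8%), against 21.4%. Median widths did not differ, at 220 bp for both sets in mouse 1 and 200 bp for both in mouse 2. By gene the share was 32.1% and 34.9% at Runx1, 31.6% and 31.8% at Runx2, 19.2% and 21.9% at Runx3, and 23.8% and 22.2% at Cbfb. The E-box CAGGTG or CAGCTG stood in 40.4% and 41.4% of window peaks, against 39.1% and 37.6% of all, and the ETS motif GGAAGT in 26.6% and 22.6%, against 24.0% and 19.6%. The second ETS form, CCGGAA, was in 8.51% and 9.77%, against 12.6% and 10.6%. The TCF/LEF forms CTTTGAA and CTTTGAT were in 8.51% and 6.02%, against 8.17% and 5.48%, and the GATA form AGATAA in 6.38% and 9.02%, against 6.12% and 4.53%. Every search covered both strands, and a match is no evidence of binding.

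Most open sites of mouse 1 were found again in mouse 2. The share was 82.1% at Runx1, 84.2% at Runx2, 92.3% at Runx3 and 95.2% at Cbfb, against 80.8% of all mouse 1 peaks. In the other direction 58.1%, 72.7%, 71.9% and 55.6% of the mouse 2 peaks were shared in the same gene order, against 66.1% of all. Footprints were shared less often. Of the mouse 1 footprints, 48.8% at Runx1, 43.0% at Runx2, 64.3% at Runx3 and 71.3% at Cbfb overlapped one of mouse 2, against 55.6% of all, and of the mouse 2 footprints 38.5%, 44.4%, 50% and 45.5%, against 45.2%.

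The sites were mostly higher in mouse 2, in the same share as all shared peaks. Of 81 pairs of overlapping peaks in the windows, 66 (81.5%) had the higher signal in mouse 2, with a median log2 ratio (mouse 2 over mouse 1) of 0.76. Of all 46907 pairs, 38239 (81.5%) were higher in mouse 2, with a median of 0.75. Over all pairs this difference moved with the G and C content of the peak, with medians of 0.07, 0.30, 0.57, 0.94 and 1.44 in 5 equal groups from the lowest to the highest content. The genes followed in part: the median log2 ratio was 0.38 at Runx1 (median 53.3% G and C), 1.04 at Runx2 (56.2%), 0.89 at Runx3 (60%) and 1.26 at Cbfb (64.1%). The part of base composition in the difference of any single site was not tested.

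**Figure D4:**
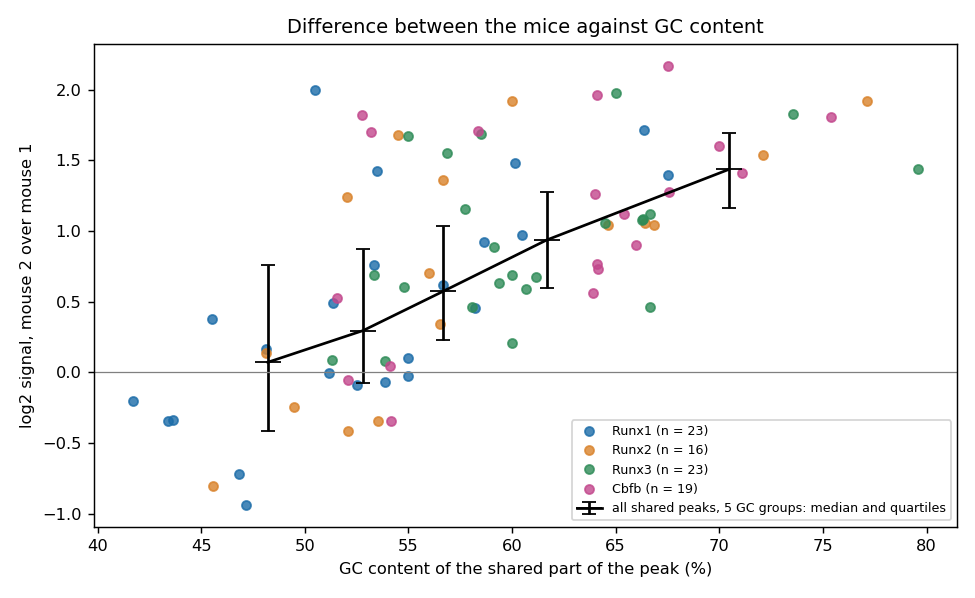
Each point is 1 of the 81 shared peaks of the windows, placed by its G and C content (x axis, percent) and by the log2 ratio of its signal, mouse 2 over mouse 1 (y axis), and the black line gives the median and quartiles of all shared peaks in 5 equal groups of G and C content. All 23 Runx3 points lie above 0, while 9 of the 23 Runx1 points do not.

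Promoters of the listed genes whose proteins work with RUNX were almost all open. This list and the target lists below were chosen with earlier results of these data known, so their counts are descriptions only. Of 26 partner and cofactor genes, 24 had a promoter peak in both mice, against 55.1% of all coding genes, among them corepressors of the Groucho/TLE family, acetyltransferases and ETS factors. The highest were Tle4, a TLE corepressor, with signals of 26.9 in mouse 1 and 58.3 in mouse 2, Sin3a, a scaffold of histone deacetylase complexes (26.6 and 42.1), and Prmt1, an arginine methyltransferase (25.9 and 35.4). The 2 exceptions were Runx1t1, the ETO corepressor gene known as the leukaemic fusion partner of RUNX1 in humans, with no peak in either mouse, and Wwtr1, the gene of the YAP-related coactivator TAZ, with a weak peak (0.474) in mouse 2 alone.

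Of 25 genes listed as RUNX targets in T-lineage cells, 20 were open in both mice, against 55.1% of all coding genes. Of these 25, 10 are also among the thymocyte markers above, all of them open, and of the other 15 genes 10 were open. The open targets include Cd4 (2.44 in mouse 1 and 2.70 in mouse 2), which RUNX represses through a silencer, and Cd8a (12.7 and 20.7). The other high promoters were those of Satb1, a chromatin organiser of thymocytes (12.8 and 25.9), and Foxp3, the regulatory T cell factor (12.9 and 20.4). For every listed gene the value is its strongest peak within 1000 bp of any of its coding start sites. Peaks that also lie at a start site of another gene were not set apart, so a value may belong to a neighbour. Among the 5 others are genes of mature effector cells. Itgae, the CD103 integrin gene of resident CD8 cells, the cytokine genes Ifng and Il4 and the granzyme gene Gzmb had no promoter peak in either mouse, and Tbx21, which encodes T-bet, had one in mouse 2 alone (1.46). Other effector genes were open, such as Prf1, which encodes perforin (4.58 and 6.23), and Eomes, a T-box factor gene related to Tbx21 (0.536 and 1.51).

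The skeletal targets of RUNX2 were closed for the most part. Of 9 genes, 2 had a promoter peak in both mice, against 55.1% of all coding genes. The count was 0 with the stronger 50% of peaks, 1 with 500 bp windows and 3 with 2500 bp windows. The 2 genes open in the main setting were Alpl, the tissue alkaline phosphatase gene (0.434 in mouse 1 and 2.10 in mouse 2), and Col1a1, a collagen gene also used as a stroma marker (1.22 and 3.11). Sp7, Bglap, Ibsp, Spp1, Col10a1, Mmp13 and Ihh, genes of osteoblasts and hypertrophic cartilage, had no promoter peak in either mouse. Of these, Sp7, Bglap, Ibsp and Col10a1 are also the 4 bone markers above.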

How the data were processed

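DNase-seq libraries of thymus from 2 female mice were used, 1 per mouse and called separately, not on pooled reads. Coordinates are mm10 (GRCm38) per the labels, and 0 intervals lay past a chromosome end of that reference. For each library the authors deposited a shorter and a longer peak list with a signal per peak, runs of bases with an FDR for their cut rate, and footprints. Peaks and cut rates were derived by the authors from filtered alignments, and footprints from both, per the text deposited with the files. Aligner and caller: not given in the sources used here. For the cut rates, the deposited p-values are FDRs and stay below 0.05. The deposited footprint lists carry the constant 0.01, so only positions were used.

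The shorter list was the main one, and the longer one, stronger peaks, other windows, stricter FDR (0.001), other overlaps and longer motifs were alternatives. Gene windows were the body plus 100 kb, promoters 1000 bp around start sites of coding transcripts (grouped within 2 kb), and sharing an overlap of at least 1 bp. Runs that touch were merged into regions of significant cutting. The signal was compared between mice over mutual pairs of overlapping peaks. Percentiles and shares over all genes or peaks are descriptions, and no test was made, since both mice form 1 group.

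The named sites are, per gene, the promoters, the 5 strongest shared peaks by mean signal away from its promoters and from other start sites, and the strongest unshared peak of each mouse. The lists name their 3 highest promoters and the members not open in both mice. The members and lists were chosen with earlier results of these data known. The CTCF search and the set of genes of 30 to 70 kb were added after values were seen. Other genes of the Runx2 and Cbfb windows are named where they bear on a count.

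Overlap counts were tested on simulated data against bedtools 2.31.1. Python 3.11.15, numpy 2.4.6, pandas 2.3.3, matplotlib 3.10.9 and samtools 1.23.1 were used with GENCODE M21.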

Additional observations from a re-analysis of the deposited data

How the results depend on the processing

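The 7 promoter calls did not move under the longer list, the stronger 50% of peaks or windows of 500 or 2500 bp. Part of this was fixed in advance, as was part of the values below that stayed. Wider windows cannot close an open promoter, and stronger peaks or 500 bp windows cannot open a closed one. The open calls could move with stronger peaks or 500 bp windows, and the closed one with the longer list or 2500 bp windows. With both mice kept, 94 recomputed values stayed within the spread between mice (or, for counts, within 1.5 times) and 30 moved. Leaving out a mouse says little here, since with 2 mice it shifts a mean by less than its SD by construction and cannot change a call on which both mice agree. No comparison of groups was possible because both mice form 1 group, and promoters and sites were compared within each mouse without a test.

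Mean peaks per window moved with the longer list to 62.5 at Runx1 and 34 at Runx2, with the stronger 50% of peaks to 23 and 9, with the gene body alone to 8 at Runx3 and 1 at Cbfb, and with 50 kb flanks to 14 at Cbfb. The stronger 50% of peaks were shared in 88.9% at Runx2. Footprints inside a peak numbered 106.5 at Runx1, 56 at Runx2, 105 at Runx3 and 101 at Cbfb. Footprints in the body alone numbered 46 at Runx3 and 7 at Cbfb, and with 50 kb flanks 75 at Cbfb. Significant cutting at an FDR of at most 0.001 covered 12.1 kb at Runx1, 6.89 kb at Runx2 and 10.1 kb at Runx3. At the FDR below 0.05 it covered 10.5, 11 and 8.25 kb at Runx2, Runx3 and Cbfb with 50 kb flanks, and 9.86, 4.26 and 1.21 kb in their bodies alone. The longer list counts more peaks, and the other settings fewer features, by construction. With promoter windows of 2500 bp the signal was 11.5 at the Runx1 proximal and 5.79 at the Runx3 proximal promoter, since the sites at +127.3 and +30 kb then fell inside. Both means then stood above those of their distal promoters (7.49 and 3.70), through mouse 2: in mouse 1 the added sites (5.36 and 2.35) stayed below the distal promoters (6.52 and 3.11). The RUNX core share was 29.0% in the stronger 50% of peaks and 13.1% for the 7-base forms. Skeletal targets open in both mice numbered 0 with the stronger 50% of peaks, 1 with 500 bp windows and 3 with 2500 bp windows. With 2 mice the SD is itself poorly known, and weak peaks near 10 steps limit what sharing shows.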
